A study of Homo sapiens with 4 samples.

Results

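The 42 genes described here encode the machinery and the regulators of S phase, the part of the cell cycle in which DNA is copied. They were taken by symbol from a list of S-phase genes, and each of the 42 matched 1 gene identifier among the 57820 genes of the table. SK-N-SH, an established human neuroblastoma cell line, was transduced either with a lentivirus carrying the lncRNA *RP5-998N21.4* under the EF1a promoter (OE) or with the same vector lacking an insert (vector control). RNA-seq was performed on 2 libraries per condition. Control libraries are titled WT, while their treatment label names the empty vector, which was followed. The labels do not say whether the 2 libraries of a condition came from separate transductions, so p-values measure only the spread between these libraries, which may be technical.

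All libraries held from 23785164 to 28307591 counts, and *RP5-998N21.4* had 32 and 33 counts in the vector control against 2407 and 2808 counts in OE. A gene's value is the sum of its transcripts' counts, and its level is given in CPM, the count scaled to a common library size after TMM normalization (factors from 0.976 to 1.02). Of 7 sympathetic neuroblastoma markers, 6 had a mean above 1 CPM and *TH*, the first enzyme of catecholamine synthesis, had 0 counts in all 4 libraries, where a count of 0 allows up to 3 counts. The summed level of the 7 was 360.4 and 430.1 CPM in the vector control against 672.6 and 639.9 CPM in OE. *HAND2* was its largest part (221.6 and 238.7 against 333.5 and 302.2 CPM). The vector control libraries differed from each other for *PHOX2A* (14.17 and 53.75 against 74.92 and 76.33 CPM) and *ISL1* (16.58 and 39.79 against 57.07 and 56.46 CPM). The 4 mesenchymal-state markers summed to 1418 and 1440 CPM in the vector control against 2174 and 1204 CPM in OE, with *VIM* at 348.3 and 349.7 CPM against 1254 and 375.8 CPM. In the same list *PRRX1* (352.7 and 443.0 against 287.9 and 223.9 CPM) and *YAP1* (331.2 and 314.5 against 269.6 and 266.7 CPM) were lower in both OE libraries, and *FN1* overlapped. Of 9 markers of blood, epithelial, endothelial, liver and glial cells, 8 were found in the table, 0 of them had a mean above 1 CPM, and their sum was from 0.717 to 2.04 CPM per library. The part of the sympathetic and mesenchymal markers in the results below was not tested.

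DNA replication starts when the MCM2 to MCM7 ring is loaded on origins in G1 and is switched on in S phase by CDC45 and the GINS complex. DNA polymerases, the sliding clamp PCNA and its loader then copy the strands, ribonucleotide reductase and thymidylate synthase supply the nucleotides, and histone chaperones rebuild the chromatin. Many of these genes are known targets of E2F transcription factors, which are held back by pocket proteins such as RB in resting cells. In bulk RNA, fewer cells in S phase and less RNA per cell cannot be told apart.

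RefSeq promoter windows, 250 bases before to 50 after the gene start on GRCh38.p14, were matched for 33 of the 42 genes. The E2F consensus was searched as TTTCCCGC, TTTCGCGC, TTTGCCGC or TTTGGCGC on both strands, where matches on opposite strands may overlap. It was found in 17 of the 33 windows (51.5%), against 5.02% of the windows of all tested genes and 3.33% of all windows. The 4 windows shown here carry the letters in capitals, and they were picked after the values were seen to set 3 genes that were lower in OE (*UHRF1*, *CLSPN* and *MCM6*) beside 1 that was not called (*MCM7*).
UHRF1 (plus strand, chr19:4909251-4909550): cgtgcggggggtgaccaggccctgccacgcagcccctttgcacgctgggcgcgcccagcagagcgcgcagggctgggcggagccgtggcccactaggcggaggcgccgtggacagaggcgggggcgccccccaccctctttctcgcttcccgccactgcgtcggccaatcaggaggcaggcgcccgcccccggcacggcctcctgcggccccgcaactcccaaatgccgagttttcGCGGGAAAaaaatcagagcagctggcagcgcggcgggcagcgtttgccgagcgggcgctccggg
CLSPN (minus strand, chr1:35769929-35770228): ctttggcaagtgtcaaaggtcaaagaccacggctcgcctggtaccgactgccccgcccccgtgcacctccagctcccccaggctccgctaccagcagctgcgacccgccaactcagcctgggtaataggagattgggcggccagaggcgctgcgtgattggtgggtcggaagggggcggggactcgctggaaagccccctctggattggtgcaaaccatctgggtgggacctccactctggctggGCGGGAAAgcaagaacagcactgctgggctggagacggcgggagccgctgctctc
MCM6 (minus strand, chr2:135876394-135876693): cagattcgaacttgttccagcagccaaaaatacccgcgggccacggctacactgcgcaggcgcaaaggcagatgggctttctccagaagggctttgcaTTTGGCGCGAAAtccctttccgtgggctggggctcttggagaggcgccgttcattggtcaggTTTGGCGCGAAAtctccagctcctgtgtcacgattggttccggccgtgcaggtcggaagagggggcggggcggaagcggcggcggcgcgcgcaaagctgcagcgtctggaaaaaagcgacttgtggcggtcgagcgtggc
MCM7 (minus strand, chr7:100101348-100101647): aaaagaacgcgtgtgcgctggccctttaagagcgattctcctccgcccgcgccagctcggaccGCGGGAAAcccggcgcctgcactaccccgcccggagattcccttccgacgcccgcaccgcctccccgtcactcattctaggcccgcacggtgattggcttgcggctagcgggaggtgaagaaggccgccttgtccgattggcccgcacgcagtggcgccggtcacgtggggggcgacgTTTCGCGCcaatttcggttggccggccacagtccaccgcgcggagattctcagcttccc
Counted from the gene start, the match began at position -14 in the *UHRF1* window and at -5 in the *CLSPN* window. In *MCM6* 2 pairs of overlapping matches began at -152 and -148 and at -90 and -86. The *MCM7* window held 1 match at -187 and 1 at -9. Among the matched genes that were lower in OE at an unadjusted p under 0.05, 6 of 10 windows held the letters, and among the other matched genes 11 of 23 did. A match of letters is a description and not a measured binding site.

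In OE, 36 of the 42 S-phase genes had a fitted log2 fold change below 0, as did 49.3% of the 20528 genes tested. At an unadjusted p under 0.05 in edgeR's quasi-likelihood test, 13 of the 42 genes (31.0%) were lower in OE, where the share over all tested genes was 10.7%, and 0 were higher, where it was 10.1%. The 13 genes had log2 fold changes from -0.91 to -0.25, or changes of -46.6% to -15.7% in level. The median over the 42 genes was -0.34, against 0.01 over all tested genes. Both OE libraries lay below both vector control libraries in 26 genes (61.9%, against 27.6% of all tested genes), and both lay above in 0 genes (against 27.8%). With vector control replicate 1, vector control replicate 2, OE replicate 1 or OE replicate 2 left out, 31, 31, 30 and 32 members lay below without overlap, against 39.1%, 38.3%, 38.2% and 38.6% of all tested genes. In the same order, 3, 3, 2 and 4 members lay above, against 39.1%, 39.4%, 38.4% and 39.7%.

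No member passed an adjusted threshold in this test. With Benjamini-Hochberg adjustment over all 20528 genes, 0 of the 42 reached the thresholds the study set (a fold change beyond 0.5 on the log2 scale in either direction, at an adjusted p under 0.01), as did 0.0% of all tested genes, and 0 reached an adjusted p under 0.05 (0.594% of all tested genes). The smallest adjusted p was that of *UHRF1* (0.0792). At the study's thresholds, limma-voom also called 0, and DESeq2, the study's tool, called 9 lower (4.42% of all tested genes) and 0 higher (4.35%). The 9 were *CHAF1B*, *BRIP1*, *WDR76*, *UHRF1*, *BLM*, *EXO1*, *RRM1*, *CLSPN* and *GINS2*. With 2 libraries against 2, an exact permutation test of a single gene cannot give a two-sided p below 0.333.

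Other fits were read against their own shares of all tested genes at an unadjusted p under 0.05. Leaving out vector control replicate 1 gave 10 lower members (7.59% of all tested genes) and 0 higher (9.22%), and leaving out vector control replicate 2 gave 9 lower (7.54%) and 0 higher (8.84%). Leaving out OE replicate 1 gave 11 lower (8.81%) and 0 higher (6.09%), and leaving out OE replicate 2 gave 15 lower (9.82%) and 0 higher (6.91%). In each of these 4 fits no member was called higher. With the replicate number as a block, 10 were lower (7.69%) and 0 higher (7.22%). DESeq2 gave 15 lower (14.9%) and 0 higher (14.0%), and upper-quartile normalization gave 10 lower (9.25%) and 0 higher (11.8%). The transcript of the highest mean count gave 13 lower (9.31%) and 0 higher (9.14%), and the transcripts counted in all 4 libraries gave 14 of 39 lower (11.1%) and 1 higher (10.4%). At an adjusted p under 0.05, DESeq2 gave 12 lower members (10.5%), and edgeR gave 1 without OE replicate 1 (*RRM2*, 0.326%) and 1 without OE replicate 2 (*FEN1*, 0.473%).

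**Figure D1:**
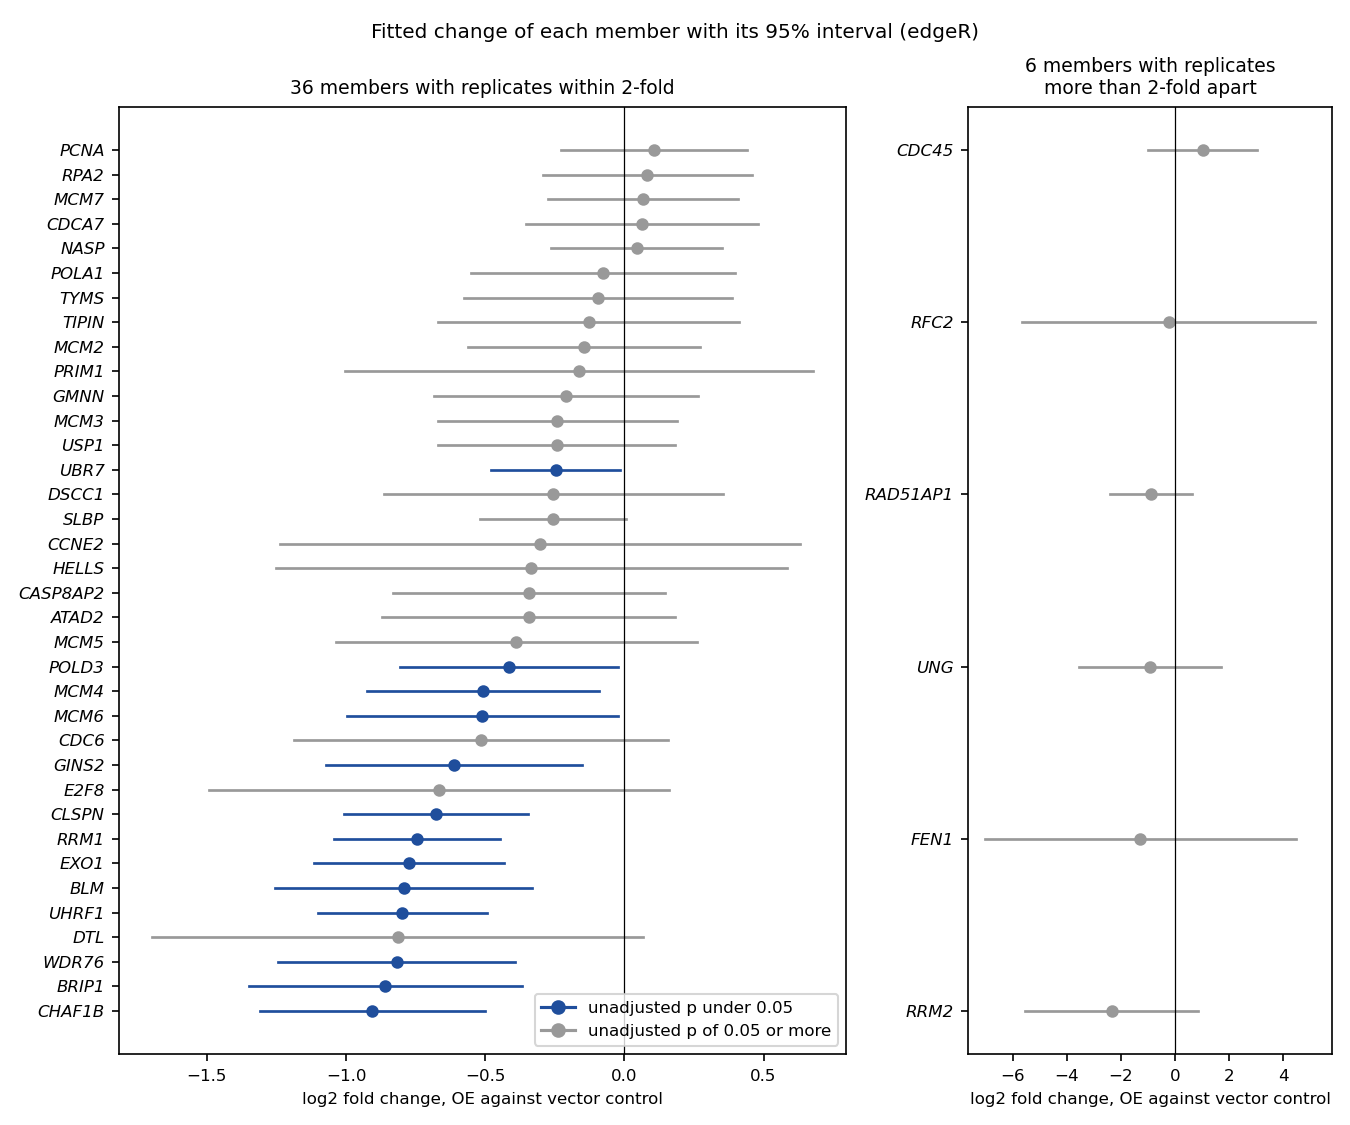
Fitted log2 fold change of each of the 42 genes, OE against vector control, as points with 95% intervals from edgeR's test, on the left for 36 genes with replicates within 2-fold and on the right, on a wider axis, for 6 genes with replicates more than 2-fold apart. The 13 genes at an unadjusted p under 0.05 (blue) all lie left of 0, from *CHAF1B* at -0.91 to *UBR7* at -0.25.

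The MCM ring is the core of the replicative helicase, and 2 of its 6 subunits, *MCM6* and *MCM4*, were lower in OE at an unadjusted p under 0.05, against 10.7% of all tested genes. *MCM6* had 481 and 427 counts in the vector control against 305 and 437 in OE, which were 20.7 and 18.2 CPM against 12.2 and 15.1 CPM. *MCM4* was at 78.1 and 98.5 CPM in the vector control and at 63.1 and 61.1 CPM in OE (1818, 2314, 1583 and 1766 counts). For both genes the OE libraries lay below the vector control libraries, with log2 fold changes of -0.51 (standard error, SE, 0.171 for *MCM6* and 0.147 for *MCM4*, with adjusted p = 0.228 and 0.190 from edgeR's test). Neither call was stable when a library was left out. *MCM6* had an unadjusted p of 0.156 from edgeR's test without vector control replicate 1 (log2 fold change -0.42), 0.0707 without vector control replicate 2 (-0.60) and 0.140 without OE replicate 1 (-0.36). For *MCM4* it was 0.0533 without vector control replicate 2 (-0.34), 0.0832 without OE replicate 1 (-0.53) and 0.101 without OE replicate 2 (-0.48).

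The other 4 subunits did not pass an unadjusted p of 0.05. *MCM5* had 330 and 243 counts in the vector control against 213 and 296 in OE (log2 fold change -0.39, 95% interval -1.04 to 0.26, from -0.60 without vector control replicate 2 to -0.15 without vector control replicate 1). *MCM3* had 1402 and 1692 against 1292 and 1748 counts (-0.24, interval -0.67 to 0.19, from -0.37 without vector control replicate 1 to -0.11 without vector control replicate 2), and *MCM2* had 979 and 954 against 834 and 1200 counts (-0.15, interval -0.56 to 0.27). Leaving out a library gave *MCM2* values from -0.31 without OE replicate 2 to 0.0057 without OE replicate 1. Its leading transcript alone gave -0.62 (unadjusted p = 0.0371 from edgeR's test), and the transcripts counted in all 4 libraries gave -0.50 (0.0504). Both settings leave out ENST00000265056.7, which held 474 of the 1200 *MCM2* counts in OE replicate 2 and 0 in each other library. They therefore lower *MCM2* in that library by construction, and no fall of the gene is read from them. In CPM the OE libraries of *MCM5* lay just below those of the vector control, while those of *MCM2* and *MCM3* overlapped them. *MCM7*, at chr7:99689856-99699563 (hg19, minus strand), had 1618 and 1850 counts in the vector control against 2061 and 2112 in OE. Its levels of 69.5 and 78.7 CPM against 82.1 and 73.0 CPM overlapped, and its log2 fold change of 0.07 had an interval from -0.28 to 0.41. Exons of *AP4M1* on the opposite strand overlap those of *MCM7*, and the use of strand in counting is not given in the sources used here.

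The licensing and activation factors put the ring in place and start it. *GINS2*, a subunit of the GINS complex that turns the ring into an active helicase, had 294 and 283 counts in the vector control against 183 and 256 in OE. The level of *GINS2* reached 12.3 ± 0.411 CPM (SD, n = 2) in the vector control against 8.07 ± 1.10 CPM (SD, n = 2) in OE, without overlap, and its log2 fold change was -0.61 (SE 0.161, edgeR adjusted p = 0.170). The call was lost without vector control replicate 1 (unadjusted p = 0.0843 from edgeR's test, log2 fold change -0.58), vector control replicate 2 (0.0652, -0.65) or OE replicate 1 (0.0753, -0.48). *CDC6*, which loads the ring, was at 23.9 and 16.3 CPM against 13.2 and 14.9 CPM (log2 fold change -0.52, interval -1.19 to 0.16), and *GMNN*, the inhibitor of reloading, was at 7.09 and 8.55 CPM against 6.77 and 6.74 CPM (-0.21, interval -0.68 to 0.26). In both, the OE libraries were the lower 2 of the 4. *CDC45*, the third part of the active helicase, was the only member under 10 counts in a library, with 5 and 14 counts in the vector control against 28 and 16 in OE. These counts lay on 1 transcript in 3 libraries and on 3 other transcripts in OE replicate 1, so that no direction is read from its log2 fold change of 1.02 (interval -1.01 to 3.06).

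**Figure D2:**
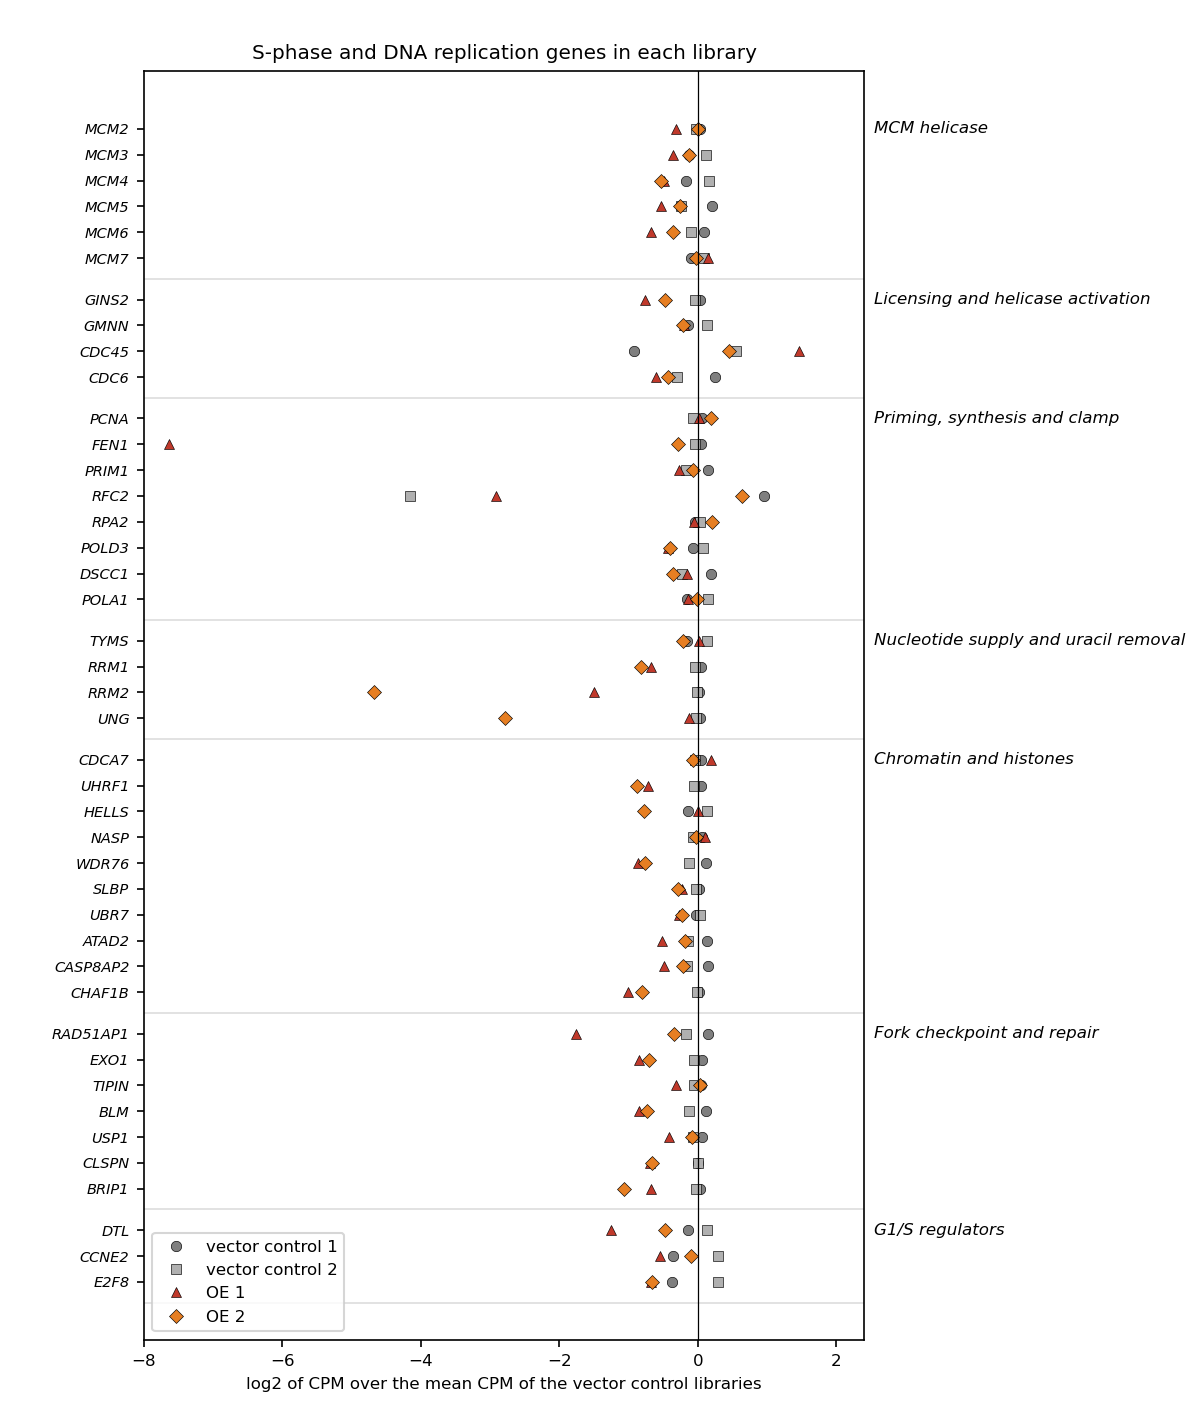
Level of each of the 42 genes in each library, as the log2 of its CPM over the mean CPM of the 2 vector control libraries, grouped by role, with grey marks for vector control and red and orange marks for OE. Most OE marks lie left of the line at 0, and 1 or 2 libraries lie far from the rest for *FEN1*, *RFC2*, *RRM2*, *UNG* and *RAD51AP1*.

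Of the 8 genes of priming, synthesis and the clamp, 1 was lower at an unadjusted p under 0.05, a share near the 10.7% of all tested genes. *POLD3*, an accessory subunit of DNA polymerase delta, had 226 and 252 counts in the vector control against 191 and 223 in OE, and it was at 9.71 and 10.7 CPM against 7.61 and 7.71 CPM, without overlap. Its log2 fold change was -0.41 (SE 0.137, edgeR adjusted p = 0.223), and its unadjusted p was from 0.0732 to 0.153 with each of the 4 libraries left out in turn. *PCNA*, the sliding clamp, had 1043 and 958 counts in the vector control against 1084 and 1412 in OE. The 44.8 and 40.8 CPM of the vector control and the 43.2 and 48.8 CPM of OE overlapped, and the log2 fold change of 0.10 had an interval from -0.23 to 0.44. It was from 0.014 without OE replicate 2 to 0.19 without OE replicate 1. *RPA2*, part of the complex that coats single-stranded DNA, had a log2 fold change of 0.08, *POLA1* and *PRIM1*, which make the primers, had -0.08 and -0.16, and *DSCC1*, of the loader used in sister chromatid cohesion, had -0.26. All 4 had OE libraries that overlapped those of the vector control.

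*FEN1* and *RFC2* belong to the same group and could not be read as changed. *FEN1*, the nuclease that trims Okazaki fragments, had 3041 and 2902 counts in the vector control, 3000 in OE replicate 2 and 16 in OE replicate 1. All of these counts lay on 1 transcript. *RFC2*, a subunit of the clamp loader, had 586 counts in vector control replicate 1 and 585 in OE replicate 2, but 17 in vector control replicate 2 and 43 in OE replicate 1. The low libraries of *RFC2* thus fell in both conditions, and those of *FEN1* in 1 OE library only. The log2 fold change of *FEN1* was -1.28 with all libraries (interval -7.03 to 4.47), -0.29 without OE replicate 1 and -7.63 without OE replicate 2. That of *RFC2* was -0.24 (interval -5.68 to 5.20), 3.91 without vector control replicate 1 and -2.91 without OE replicate 2. *FADS2*, whose exons share 49 bases with those of *FEN1*, had 3578, 3932, 2644 and 2903 counts in vector control replicates 1 and 2 and OE replicates 1 and 2, and the pseudogene *FEN1P1* had 290, 287, 205 and 284 counts, so neither was higher in OE replicate 1 than in the other libraries.

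The nucleotide group holds the enzymes that make deoxynucleotides and 1 that removes uracil from DNA. *RRM1*, the large subunit of ribonucleotide reductase, is at chr11:4115937-4160162 (hg19, plus strand). The gene had 1246 and 1186 counts in the vector control against 816 and 852 in OE. Its level was 53.5 and 50.5 CPM against 32.5 and 29.5 CPM, without overlap, a log2 fold change of -0.75 (SE 0.105, edgeR adjusted p = 0.0831). *RRM2*, the small subunit that is made in S phase, is at chr2:10260825-10351851 (hg19, plus strand). It reached 2195 and 2168 counts in the vector control, 830 in OE replicate 1 and 105 in OE replicate 2. Both OE libraries were low, but they differed 9.11-fold from each other in CPM, and the log2 fold change of -2.35 had an interval from -5.53 to 0.84 (unadjusted p = 0.108 from edgeR's test). It was -1.50 without OE replicate 2 (unadjusted p = 0.00112 from edgeR's test) and -4.68 without OE replicate 1 (8.52e-05).

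The pseudogene *RRM2P3*, singled out after its values were seen, had 2047 and 1897 counts in the vector control against 659 and 798 in OE. How reads shared by *RRM2* and its copies were divided is not given in the sources used here. With the counts of *RRM2P3* added, *RRM2* had 4242 and 4065 counts in the vector control against 1489 and 903 in OE, and the log2 fold change was -1.97 (unadjusted p = 0.00627 from edgeR's test). This sum was chosen after the values were seen. *TYMS*, the thymidylate synthase, did not differ beyond its spread, with 422 and 521 counts in the vector control against 511 and 503 in OE (log2 fold change -0.09, interval -0.58 to 0.39). Its exons share 967 bases with those of *ENOSF1* on the opposite strand. *UNG*, the uracil-DNA glycosylase, had 1460 and 1410 counts in the vector control, 1407 in OE replicate 1 and 258 in OE replicate 2. OE replicate 1 was close to the vector control and OE replicate 2 far below it, and the log2 fold change of -0.92 (interval -3.54 to 1.71) was -0.13 without OE replicate 2 and -2.78 without OE replicate 1 (unadjusted p = 0.000362 from edgeR's test).

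Among the 10 chromatin and histone genes, 4 were lower at an unadjusted p under 0.05, against 10.7% of all tested genes. *UHRF1*, which brings the maintenance DNA methyltransferase to newly copied DNA, had 1415 and 1334 counts in the vector control against 891 and 929 in OE. Its levels of 60.8 and 56.8 CPM against 35.5 and 32.1 CPM gave a log2 fold change of -0.80 (SE 0.106, edgeR adjusted p = 0.0792). *CHAF1B*, a subunit of the CAF-1 histone chaperone, had 362 and 358 counts against 191 and 255, or 15.5 and 15.2 CPM against 7.61 and 8.82 CPM. The log2 fold change of -0.91 (SE 0.142, edgeR adjusted p = 0.0937) was the lowest among the 13 genes. *CHAF1B* shares 89 exon bases with *MORC3* on the same strand, which had from 1054 to 1350 counts per library. *WDR76* was at 19.5 and 16.5 CPM against 9.84 and 10.6 CPM (455, 387, 247 and 306 counts), a log2 fold change of -0.82 (SE 0.150, edgeR adjusted p = 0.111). In all 3 genes the conditions did not overlap.

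*UBR7*, a ubiquitin ligase of histones, had a smaller difference, with 2042 and 2140 counts in the vector control against 1861 and 2213 in OE (87.7 and 91.1 CPM against 74.2 and 76.5 CPM). Its log2 fold change was -0.25 (SE 0.0810, edgeR adjusted p = 0.222), and its unadjusted p was 0.0764 and 0.113 without vector control replicate 1 and 2, and 0.122 and 0.0843 without OE replicate 1 and 2. *SLBP*, which binds the stem loop of histone mRNAs, was at 39.9 and 38.8 CPM against 33.7 and 32.2 CPM (log2 fold change -0.26, interval -0.52 to 0.01). *ATAD2*, a chromatin ATPase, and *CASP8AP2*, which is needed for histone gene transcription, both had -0.34, with the OE libraries the lower 2 of the 4 and intervals that held 0. *HELLS*, a chromatin remodeller, had -0.33 and overlapped, since OE replicate 1 was at 21.3 CPM and OE replicate 2 at 12.3 CPM. Its partner *CDCA7* and the histone chaperone *NASP* were at 0.06 and 0.04 with intervals from -0.35 to 0.48 and from -0.26 to 0.35.

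All 7 genes of the fork checkpoint and repair group had a fitted log2 fold change below 0, against 49.3% of all tested genes, and 4 were lower at an unadjusted p under 0.05, against 10.7%. *EXO1*, an exonuclease of mismatch repair and end resection, had 651 and 607 counts in the vector control against 376 and 477 in OE, and its log2 fold change was -0.77 (SE 0.120, edgeR adjusted p = 0.0933). *CLSPN*, which carries the ATR signal to CHK1 at stalled forks, had 379 and 380 counts against 251 and 298, with 16.2 ± 0.0736 CPM (SD, n = 2) in the vector control against 10.2 ± 0.212 CPM (SD, n = 2) in OE. Its replicates lay closest together of the 13 genes in the vector control, and its log2 fold change was -0.68 (SE 0.116, edgeR adjusted p = 0.102). *BRIP1* and *BLM*, both DNA helicases of repair, had log2 fold changes of -0.86 and -0.79 (adjusted p = 0.121 and 0.125 from edgeR's test). *BRIP1* had 785 and 765 counts against 520 and 458, and *BLM* had 314 and 265 against 172 and 215. Neither the libraries of *BRIP1* nor those of *BLM* overlapped in CPM between conditions.

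*RAD51AP1* had 389 and 315 counts in the vector control, 342 in OE replicate 2 and 112 in OE replicate 1. The 112 counts lay on a different transcript from the counts of the other 3 libraries. Its log2 fold change was -0.88 (interval -2.39 to 0.63), -0.35 without OE replicate 1 and -1.75 without OE replicate 2 (unadjusted p = 0.00762 from edgeR's test). *USP1*, which removes ubiquitin from PCNA and FANCD2, and *TIPIN*, a fork protection factor, had -0.24 and -0.13 with intervals from -0.67 to 0.18 and from -0.67 to 0.41. Exons of *TIPIN* share 579 bases with the pseudogene *RPL9P25* on the same strand, which had 30 and 44 counts in the vector control against 73 and 81 in OE.

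The 3 regulators of the G1 to S transition did not pass an unadjusted p of 0.05. *DTL*, which directs the licensing factor CDT1 to degradation in S phase, was at 48.4 and 58.1 CPM in the vector control and at 22.4 and 38.1 CPM in OE. Both OE libraries were below the vector control, and the log2 fold change of -0.81 had an interval from -1.70 to 0.07. *E2F8*, a repressor of E2F targets, was at 3.69 and 5.83 CPM against 2.99 and 3.01 CPM (-0.67, interval -1.49 to 0.16). *CCNE2*, a cyclin that activates CDK2, overlapped between conditions, at 3.56 and 5.62 CPM against 3.15 and 4.29 CPM (-0.30, interval -1.24 to 0.63). Its exons share 1629 bases with those of *INTS8* on the opposite strand, which had 198 and 159 counts in the vector control against 232 and 175 in OE.

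Replicates of 1 condition differed more than 2-fold in CPM for 6 of the 42 genes, *FEN1*, *RRM2*, *UNG*, *RFC2*, *RAD51AP1* and *CDC45*. Of the 39 members with a mean of at least 100 counts, 5 did so, where the share over all tested genes with that mean was 11.7%. Without the 6 genes, a selection made after the values were seen, 13 of 36 were lower at an unadjusted p under 0.05 and 22 lay below the vector control in both OE libraries, against 12.9% and 30.7% of all tested genes with replicates within 2-fold, and the median log2 fold change was -0.34. A gene's counts could also move between its transcripts. Of 337 transcripts listed for the members, 108 had counts, 37 genes had the same leading transcript in all 4 libraries, and *MCM4*, *PCNA*, *CDCA7*, *RAD51AP1* and *CDC45* did not. For *PCNA* all 1043 and 1084 counts of vector control replicate 1 and OE replicate 1 lay on ENST00000379160.3, while ENST00000379143.5 took 631 of the 958 counts of vector control replicate 2 and 1063 of the 1412 counts of OE replicate 2. The gene sum of *PCNA* thus varied less than its transcripts did.

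*CDC45*, *CDCA7* and *RAD51AP1* had no transcript counted in all 4 libraries. In *MCM4*, ENST00000523944.1 held 1427, 1454 and 1100 of its counts in vector control replicates 1 and 2 and OE replicate 1 and 0 in OE replicate 2, where ENST00000262105.2 held 1676 of 1766. When only transcripts with a count in all 4 libraries were summed, *MCM4* rested on ENST00000521261.1 alone, with 13 and 6 counts in the vector control against 30 and 56 in OE, and its log2 fold change turned to 1.93 (unadjusted p = 0.0244 from edgeR's test). The log2 fold changes of *MCM4* given above are those of the gene sum.

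**Figure D3:**
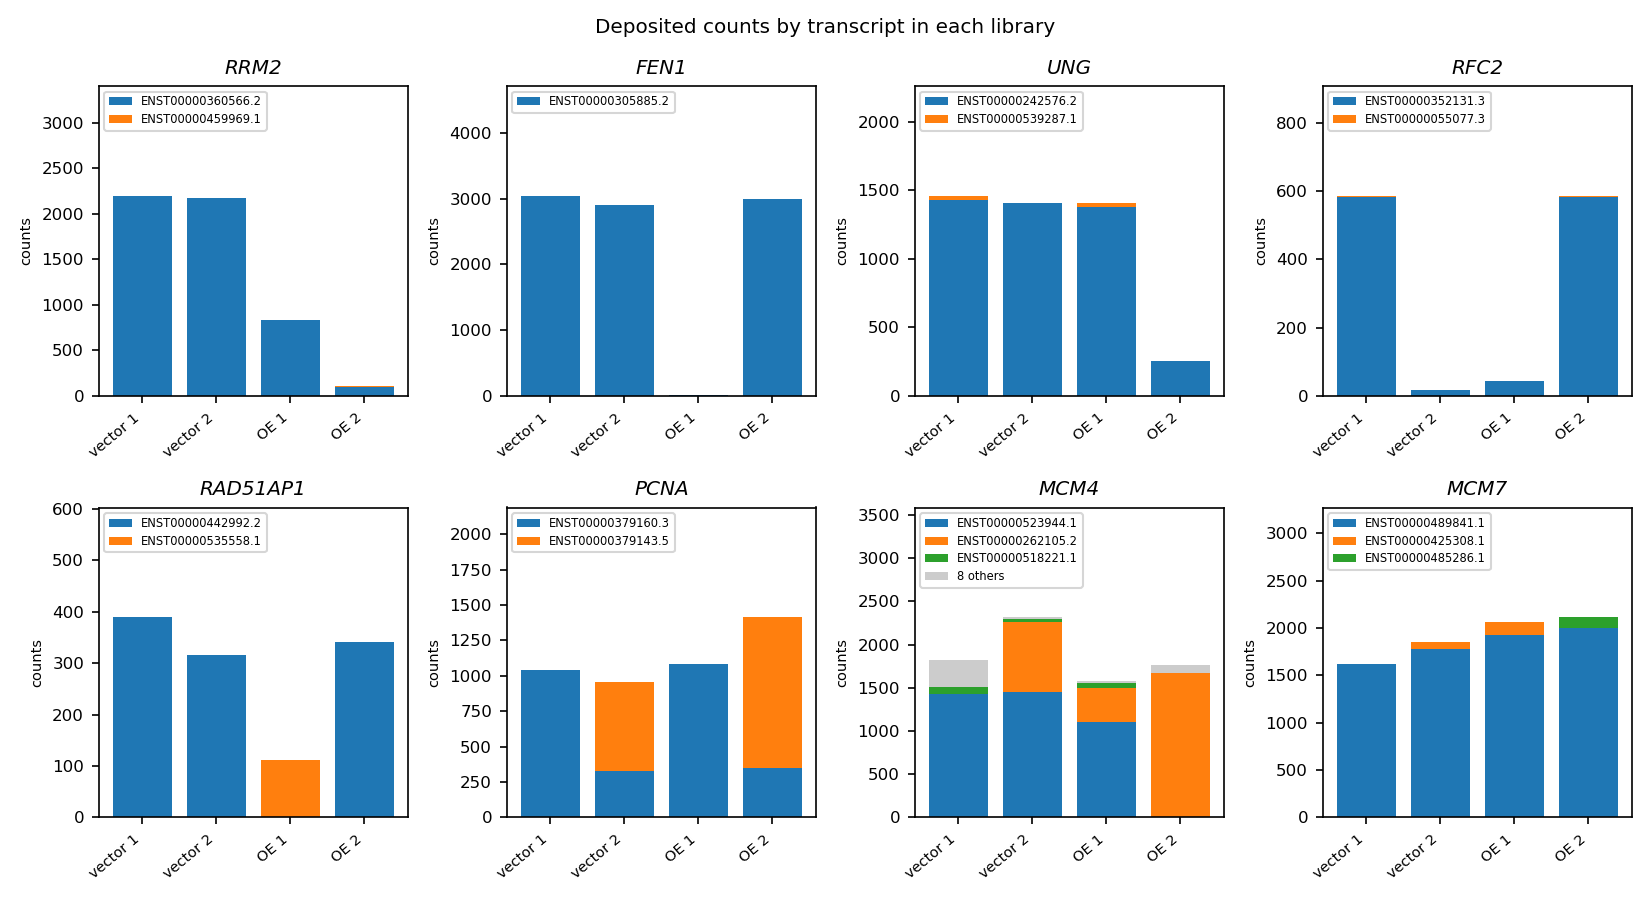
Deposited counts per library for 8 of the genes, stacked by transcript, with counts on the vertical axis. *FEN1* drops from 3041, 2902 and 3000 counts to 16 in OE replicate 1 on a single transcript, whereas in *PCNA* and *MCM4* counts shift between transcripts and the sums vary less.

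Levels per transcript length were compared for the 40 members with a transcript length for over 90% of their counts, which leaves out *MCM4* (46.8%) and *UHRF1*, as CPM per kilobase of the count-weighted mean length. In the vector control, *FEN1* was the highest at 63.0 ± 2.49 (SD, n = 2), followed by *PCNA* at 32.2 ± 2.14 and *UNG* at 29.9 ± 0.928. *UBR7* (25.6 ± 0.684), *RRM2* (25.4 ± 0.385) and *USP1* (25.2 ± 1.57) did not differ beyond their spread. These levels leave out the counts of pseudogenes, which in the vector control were 2047 and 1897 for *RRM2P3*, 304 and 324 for *PCNAP3* and 290 and 287 for *FEN1P1*. At the other end, *PRIM1* was at 0.846 ± 0.134 and *CDC45* at 0.301 ± 0.20 CPM per kilobase. Within the MCM ring, whose proteins assemble in equal number, *MCM7* (24.1 ± 2.12) and *MCM3* (21.7 ± 2.73) did not differ beyond their spread, *MCM2* was at 16.0 ± 0.395, and *MCM6* (5.17 ± 0.468) and *MCM5* (3.63 ± 0.803) were lower. In OE, *PCNA* was at 34.6 ± 2.99 CPM per kilobase (SD, n = 2) and *RRM1* at 10.5 ± 0.736, against 17.7 ± 0.729 in the vector control. Lengths depend on the transcripts to which the authors' counting gave the reads.

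Other genes of DNA replication and of its control were described with a list of 72 genes, all of them tested. In OE, 18 of the 72 were lower and 1 higher at an unadjusted p under 0.05, against 10.7% and 10.1% of all tested genes, and the median log2 fold change was -0.27. Without vector control replicate 2, the median was -0.16. The origin licensing and firing genes held 6 of the 18 among 21 genes, the polymerases and fork genes 5 of 21, the E2F and pocket proteins 4 of 17, the chromatin genes 2 of 7 and the nucleotide genes 1 of 6. *RECQL4*, a helicase of replication initiation, had 795 and 792 counts in the vector control against 471 and 524 in OE (log2 fold change -0.88, adjusted p = 0.0690 from edgeR's test). *ASF1B*, a histone chaperone, *ORC1*, of the origin recognition complex, and *CCNA2*, the S-phase cyclin, had -0.86, -0.83 and -0.83, and *TOP2A*, which untangles DNA, had -0.68. In these 5 genes both OE libraries lay below both vector control libraries.

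*E2F4*, an E2F factor that binds pocket proteins and is known mostly as a repressor, was the gene of that list that was higher. There were 1549 and 1611 counts in the vector control against 4341 and 4703 in OE, for a log2 fold change of 1.31 (SE 0.0797, edgeR adjusted p = 0.0376). Its counts were spread unevenly over 3 transcripts. ENST00000567007.1 held 707 and 985 counts in the vector control against 826 and 0 in OE. ENST00000379378.3 held 297 and 0 counts in the vector control against 3501 and 4684 in OE, while ENST00000567228.1 held 545 and 626 counts in the vector control against 14 and 19 in OE. Only ENST00000567228.1 had a count in all 4 libraries. On that transcript alone the log2 fold change turned to -5.35 (unadjusted p = 1.96e-05 and adjusted p = 0.0185 from edgeR's test). The transcript of the highest mean count alone gave 4.56 (unadjusted p = 0.221 from edgeR's test). The adjusted p of the gene sum was 0.296 with a replicate block and from 0.0779 to 0.123 with each library left out in turn.

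The genes of the next stage of the cycle were set beside the S-phase genes with a list of 53 G2 and mitosis genes, all tested, of which *TOP2A* is also in the list of 72. Of the 53, 26 were lower and 0 higher in OE at an unadjusted p under 0.05, against 10.7% and 10.1% of all tested genes, with a median log2 fold change of -0.48. *MKI67*, the proliferation marker, had 4599 and 4135 counts in the vector control against 2352 and 2742 in OE (log2 fold change -0.99, adjusted p = 0.0615 from edgeR's test). *ANLN*, of the cytokinetic ring, had -1.15 and *CDCA2*, a phosphatase subunit on mitotic chromosomes, had -1.35, and *DLGAP5*, *CENPA* and *NDC80*, of the spindle and the kinetochore, had -1.12, -1.01 and -1.02. In all 6 the conditions did not overlap. The difference between the lists was not tested.

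**Figure D4:**
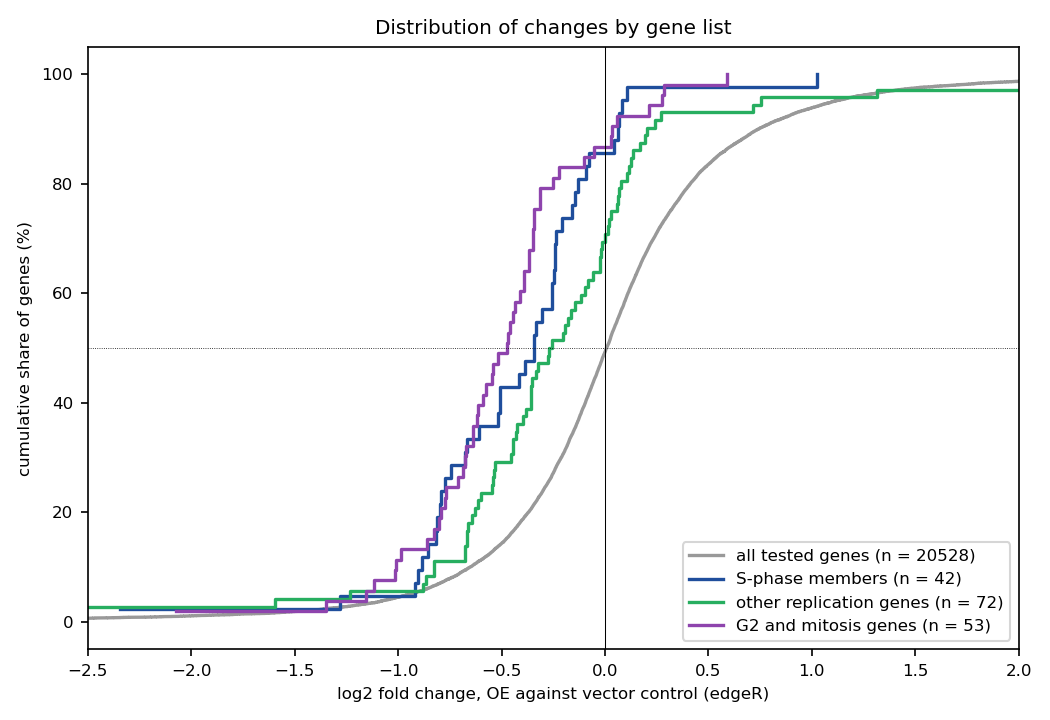
Cumulative share of genes (vertical axis, %) by log2 fold change, OE against vector control (horizontal axis), for all 20528 tested genes, the 42 S-phase genes, 72 other replication genes and 53 G2 and mitosis genes. The curves of the 3 lists lie left of that of all tested genes, with medians of -0.34, -0.27 and -0.48 against 0.01.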

How the data were processed

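The 4 RNA-seq libraries of SK-N-SH cells comprised 2 OE and 2 vector control, grouped by the sample labels. Per the study's methods, reads were checked with FastQC, trimmed with Trimmomatic and mapped to hg19 with Bowtie2. The submitters' processing notes name Bowtie2 2.0.4, Picard 2.21.6, StringTie 2.1.6 and DESeq2 without their roles. The authors deposited whole-number counts for 196520 transcripts, without normalization. The counting tool, annotation release and use of strand are not given in the sources used here.

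Counts were summed per gene. Genes kept by filterByExpr (20528) were TMM-normalized and tested with edgeR 4.0.16 (R 4.3.3, quasi-likelihood, two-sided, no covariates, Benjamini-Hochberg adjustment over all of them). DESeq2 1.42.0 and limma-voom (limma 3.58.1) were alternatives, with other normalizations, filters and transcript sums, a replicate block and each library left out. Scripts were tested on simulated counts. The members and lists were chosen with earlier results of these data known. Counts per library are given for members past an unadjusted p under 0.05, the MCM genes, *PCNA*, *TYMS*, *RRM1*, *RRM2*, and members with replicates over 2-fold apart or under 10 counts, and for up to 6 genes of each other list with the largest change past that p. Other values were added after they were seen. Positions, overlaps and transcript lengths came from GENCODE v44 lifted to GRCh37, promoters from RefSeq. Limits read from counts of 0 cover counting error only. Each symbol with several identifiers was taken as the gene with the most counts.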

Additional observations from a re-analysis of the deposited data

How the results depend on the processing

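Over the 13 alternatives run for each of the 13 genes lower at an unadjusted p under 0.05, 8 stayed past it in all (*BLM*, *BRIP1*, *CHAF1B*, *CLSPN*, *EXO1*, *RRM1*, *UHRF1* and *WDR76*). *GINS2*, *MCM4*, *MCM6*, *POLD3* and *UBR7* lost it in at least 1. The alternatives reuse the same 4 libraries, and the 13 genes were picked by the main fit. The share of all tested genes that stayed past it in all was not computed. With each library left out in turn, 9 to 15 S-phase genes were lower (7.54% to 9.82% of all tested genes) and 0 higher (6.09% to 9.22%), the median was -0.49 to -0.29 (-0.49 without OE replicate 2), and 30 to 32 genes lay below and 2 to 4 above the vector control without overlap, where 38.2% to 39.1% and 38.4% to 39.7% of all tested genes did. The median was -0.44 with the transcript of the highest mean count. With transcripts present in all 4 libraries, 39 members remained testable and 1 was higher and above (*MCM4*). The other replication genes had a median of -0.30 with 0 higher in that setting, where 10.4% of all tested genes were higher. By edgeR with all libraries, 0 S-phase genes were lower at the study's thresholds and 0 at an adjusted p under 0.05. DESeq2 gave 9 (4.42% of all tested genes) and 12 (10.5%). By edgeR, the log2 fold change of *RRM2* was -4.68 without OE replicate 1, and that of *FEN1* was -7.63 without OE replicate 2. Each value rests on 1 OE library, with 105 counts for *RRM2* and 16 for *FEN1*.

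Among the other replication genes, leaving out a library gave 11 to 19 lower at an unadjusted p under 0.05 (7.54% to 9.82% of all tested genes). It gave 1 to 3 higher (6.09% to 9.22% of all tested genes) and a median of -0.28 to -0.16. At an unadjusted p under 0.05, 4 of 72 were higher by DESeq2 (14.0% of all tested genes) and 3 of 72 with the replicate block (7.22%). With the leading transcript it was 2 of 70 (9.14%). The median was -0.23 with upper-quartile normalization. For G2 and mitosis genes, leaving out a library gave a median of -0.55 to -0.49. Higher genes numbered 1 with upper-quartile normalization, DESeq2, the leading transcript or transcripts present in all libraries. The shares of all tested genes were 11.8%, 14.0%, 9.14% and 10.4% in that order. The median was -0.44 with upper-quartile normalization and -0.53 with the leading transcript.

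Among the genes refitted one by one, which do not include every member, log2 fold changes that changed sign were those of *RFC2* (0.56 by limma-voom, 0.31 with the replicate block, -2.91 to 3.91 with a library left out), *MCM7* (-0.024 to 0.15 with a library left out, below 0 without vector control replicate 1 or OE replicate 1), *TYMS* (-0.23 to 0.054, above 0 without replicate 2 of either condition), *MCM2* (-0.31 to 0.0057, above 0 without OE replicate 1), *CDC45* (-0.52) and *PCNA* (-0.087) with the leading transcript, and *PCNA* (-0.090), *MCM4* (1.93) and *E2F4* (-5.35) with transcripts present in all libraries. Where a condition is left with 1 library, that library is assumed to vary like the others. Fewer counts entered the last 2 settings by construction, and the other causes were not tested. The labels do not say whether same-numbered libraries belong together. Their deviations from the group means correlated at -0.0216 across genes. With 2 libraries per condition this cannot show that the numbers carry no pairing. With the replicate block, 10 S-phase genes were lower (7.69% of all tested genes) and 0 higher (7.22%), with a median of -0.36.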
